A study of Saccharomyces cerevisiae with 9 samples.

Results

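The genes described here encode the enzymes that carry pyruvate to ethanol and acetate in *Saccharomyces cerevisiae*, and were chosen by name and systematic identifier. There were 10 of them among the 7127 genes in the count files. They were the pyruvate decarboxylase genes *PDC1* (YLR044C), *PDC5* (YLR134W) and *PDC6* (YGR087C), the alcohol dehydrogenase genes *ADH1* (YOL086C), *ADH2* (YMR303C), *ADH3* (YMR083W), *ADH4* (YGL256W) and *ADH5* (YBR145W), and the aldehyde dehydrogenase genes *ALD4* (YOR374W) and *ALD6* (YPL061W). All 10 were found and all 10 passed the filter on low counts in each comparison.

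Yeast growing on glucose sends most of its pyruvate to ethanol even when oxygen is present. Pyruvate decarboxylase removes carbon dioxide from pyruvate to give acetaldehyde, and alcohol dehydrogenase reduces acetaldehyde to ethanol, which returns the NADH of glycolysis to NAD+. Aldehyde dehydrogenase oxidises the remaining acetaldehyde to acetate, the precursor of cytosolic acetyl-CoA and a source of NADPH. Once glucose has run out, ethanol is taken back up and oxidised, largely through Adh2 and the mitochondrial Ald4, whose genes are known to be repressed by glucose.

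The study asked how the transcriptome of yeast differs within log phase. Polyadenylated RNA was sequenced from 9 cultures, with 3 biological replicates each in early, mid and late log, the subphases being set by culture density. All cultures were of the same wild-type strain, haploid *MATa*, with the marker alleles *can1-100*, *his3-11*, *leu2-3*,*112*, *trp1-1*, *ura3-1* and *ade2-1*, and with *RPA135*, a subunit gene of RNA polymerase I, carrying the tag (HA)3-(His)7 beside *TRP1*. All were grown in YPD, a rich glucose medium, at 30 °C, so the tag and the auxotrophies were shared by every group and there was no untagged reference. Glucose, ethanol and acetate in the medium were not measured in these files.

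The libraries held 22830165 to 34358259 counts on genes. Early log replicate 3 and mid log replicate 1 stood apart from the other replicates of their subphases. The chi-square of their counts against those of each fellow replicate was 435 to 662 per degree of freedom, against 8.65 to 37.1 for all other pairs of replicates, so no library repeated another. The paper reports that its samples early log C and mid log A deviated. It places them at the top and the bottom, respectively, of the culture densities of their subphases. It does not state that these letters follow the replicate numbers. Early log replicates 1 and 2 came from sequencing run 1, mid log from run 2, and early log replicate 3 with late log from run 3. Mid log and run 2 therefore cannot be told apart. The labelled mating type was checked against its markers. The summed level of *STE2*, *MFA1*, *MFA2* and *BAR1* ranged over 607 to 627 CPM (counts on a gene relative to the library's total, after the TMM scaling of edgeR) for early log, 1065 to 1444 CPM for mid log and 2062 to 2289 CPM for late log, against 2.54 to 3.93 CPM for the 3 *MATalpha* markers over all libraries. These 4 *MATa* markers were higher in late than in early log, and their part in the results was not tested.

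Several of the genes are close relatives, which matters for how reads are told apart. The coding sequences of *ADH1* and *ADH2* were 88.8% identical and differed at 117 of 1047 bases, and those of *PDC1* and *PDC5* were 87.2% identical, whereas *PDC6* was 75% identical to *PDC1*. *ADH3* and *ADH5* were 75.4% and 73.8% identical to *ADH1*, and *ALD4* and *ALD6* were 64.6% identical to each other. *ADH4* aligned to *ADH1* over 931 bases only, at 64.1% identity. The stretch in which the first pair differed most is shown to make visible what a read from *ADH1* offers against a read from *ADH2*, with differing bases in capitals, at coding positions 668 to 727 (R64, minus strand, chrXV:159868-159927 and chrXIII:873611-873670).
ADH1: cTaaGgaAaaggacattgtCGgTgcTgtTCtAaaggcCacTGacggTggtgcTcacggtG
ADH2: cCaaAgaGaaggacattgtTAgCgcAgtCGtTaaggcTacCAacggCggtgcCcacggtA
These lines differed at 16 bases. In contrast, coding positions 193 to 381 were identical in the 2 genes over 189 bases, and the stretch from 193 to 252 is given for *ADH1* (chrXV:160343-160402); *ADH2* reads the same at chrXIII:874086-874145.
ADH1: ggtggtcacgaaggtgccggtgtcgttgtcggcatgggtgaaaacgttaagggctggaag

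A read that lies inside that shared stretch fits both genes. Of all 50-base windows of the *ADH1* and *ADH2* coding sequences, 86.0% occurred once in the genome, and of all 75-base windows 88.2% did. For *PDC1* and *PDC5* the shares were 99.0% and 100%, and for the other 6 genes 100% at both lengths. The read length is not given in the sources used here, so both lengths were tried. With up to 2 differences allowed, 22.0% of the 50-base windows of *ADH2* still resembled *ADH1*, 10.9% of those of *PDC5* resembled *PDC1*, and none of those of *PDC6* did. The pyruvate decarboxylase genes are shown where they differed most, at coding positions 1034 to 1093, with every base that is not shared by all 3 in capitals (R64, *PDC1* chrXII:232989-233048, minus strand; *PDC5* chrXII:411756-411815, plus strand; *PDC6* chrVII:651889-651948, minus strand).
PDC1: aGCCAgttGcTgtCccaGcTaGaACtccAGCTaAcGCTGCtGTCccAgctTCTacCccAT
PDC5: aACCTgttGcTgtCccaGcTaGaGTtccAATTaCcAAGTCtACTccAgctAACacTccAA
PDC6: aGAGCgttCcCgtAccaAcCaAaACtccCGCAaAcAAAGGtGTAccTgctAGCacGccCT
Here *PDC5* differed from *PDC1* at 19 bases and *PDC6* differed from it at 22.

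**Figure D1:**
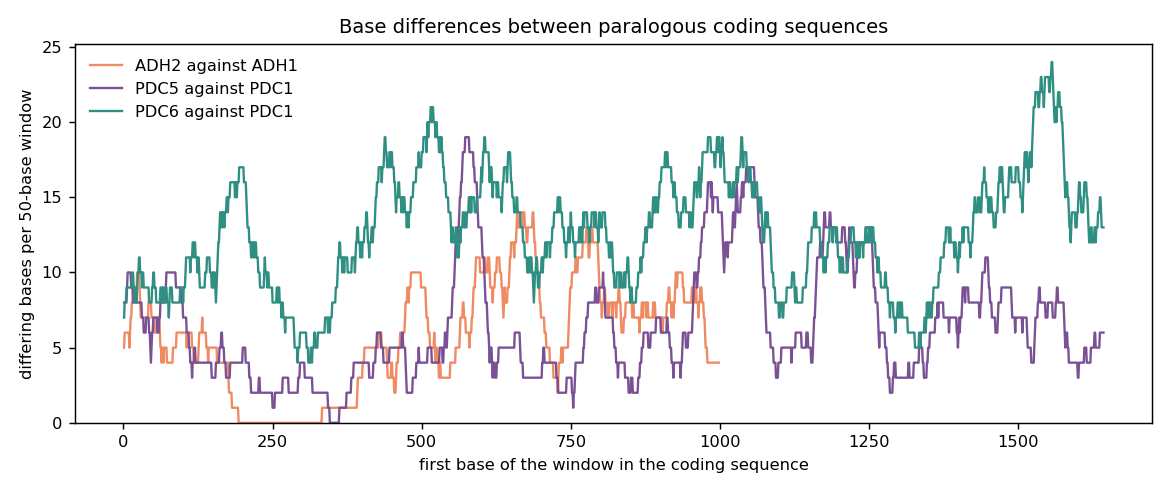
Number of differing bases (vertical axis) in each 50-base window along the coding sequence (horizontal axis, first base of the window), for *ADH2* against *ADH1*, *PDC5* against *PDC1* and *PDC6* against *PDC1*. The *ADH2* line lies at 0 over the identical stretch from position 193 and reaches 14 elsewhere, the *PDC5* line ranges from 0 to 19, and the *PDC6* line reaches 24 and is never at 0.

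The stretches before *PDC1*, *ADH1* and *ADH2* are shown because *PDC1* and *ADH1* both were higher in mid and in late log than in early log, and *ADH2* is the classical glucose-repressed member of the family. The box CTTCC, known as the core of sites for the glycolytic activator Gcr1, was searched on both strands from -700 to -101 relative to each start codon. It occurred 4 times before *PDC1* and 5 times before *ADH1*, against 0 to 2 times before the other 8 genes. Among those 8, *ADH3*, *ADH4* and *ADH5* were also higher in mid and in late log than in early log, with 1, 1 and 2 boxes. Of the 5999 upstream windows of the genome 73.0% held the box at least once, 6.07% at least 4 times and 1.70% at least 5 times. The richest stretches follow, with the box or its complement in capitals, *PDC1* from -700 to -521 (R64, minus strand, chrXII:234602-234781) and *ADH1* from -356 to -177 (minus strand, chrXV:160771-160950).
PDC1: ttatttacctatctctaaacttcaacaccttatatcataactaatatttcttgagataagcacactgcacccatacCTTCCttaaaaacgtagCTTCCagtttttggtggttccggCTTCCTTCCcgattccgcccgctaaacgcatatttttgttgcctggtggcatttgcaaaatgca
ADH1: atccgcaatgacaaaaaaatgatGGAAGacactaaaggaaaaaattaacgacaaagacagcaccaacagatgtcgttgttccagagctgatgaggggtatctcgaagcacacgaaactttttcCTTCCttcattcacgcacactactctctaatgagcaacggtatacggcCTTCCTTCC
All 4 boxes of *PDC1* started between -624 and -580, and 4 of the 5 before *ADH1* fell in the stretch printed. In both genes the last 2 boxes shared a base. These are matches of letters and not mapped binding sites.

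Upstream of *ADH2*, the search found a perfect inverted repeat of 22 bases that starts at -292, and 1.3% of the 5999 windows held a perfect repeat as long. It is printed in capitals within its surroundings (R64, minus strand, chrXIII:874568-874669).
ADH2: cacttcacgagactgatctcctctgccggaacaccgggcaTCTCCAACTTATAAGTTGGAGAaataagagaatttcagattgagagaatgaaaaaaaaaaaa
The repeat holds TTGGAG on each strand, at -291 and -277, the core sequence known for Adr1, the activator of *ADH2* once glucose is gone. The core in its forms TTGGAG and TTGGGG, searched on both strands, occurred in 34.6% of all windows, 2 or more times in 7.48% and 3 or more times in 1.02% of them. It was found 3 times before *ALD4*, and 1 time each before *PDC5*, *ADH4* and *ADH5*. Cores of sites for the glucose repressor Mig1 were searched on both strands as GCGGGG or CCGGGG and, with T in the second place, as GTGGGG or CTGGGG. They occurred 1 time each before *PDC6*, *ADH4*, *ALD4* and *ALD6*, and in 29.8% of all windows. The Adr1 match before *ADH5* shared 2 bases with a CTTCC box, and no other matches of different motifs overlapped.

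*PDC1* and *ADH1* together took up 2.04%, 2.16% and 3.81% of all gene counts in early log, 5.43%, 7.31% and 7.27% in mid log, and 4.26%, 4.37% and 4.26% in late log. The means were 2.67% ± 0.987, 6.67% ± 1.07 and 4.30% ± 0.0638 in early, mid and late log (SD, n = 3 each). The 3 subphases did not overlap, and early log replicate 3 and mid log replicate 1 were the libraries of their groups nearest to late log. The other 8 genes together stayed at 0.140% ± 0.00875, 0.138% ± 0.0140 and 0.139% ± 0.00296 of the gene counts. That sum held opposite changes. *ALD6* took 0.0687% to 0.0712% in early log and 0.0180% to 0.0325% in mid log, whereas *ADH3* took 0.0355% to 0.0480% and 0.0656% to 0.0940%. These are shares of the deposited counts, with no scaling. In a bulk culture, more cells with a transcript and more of it per cell cannot be told apart.

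**Figure D2:**
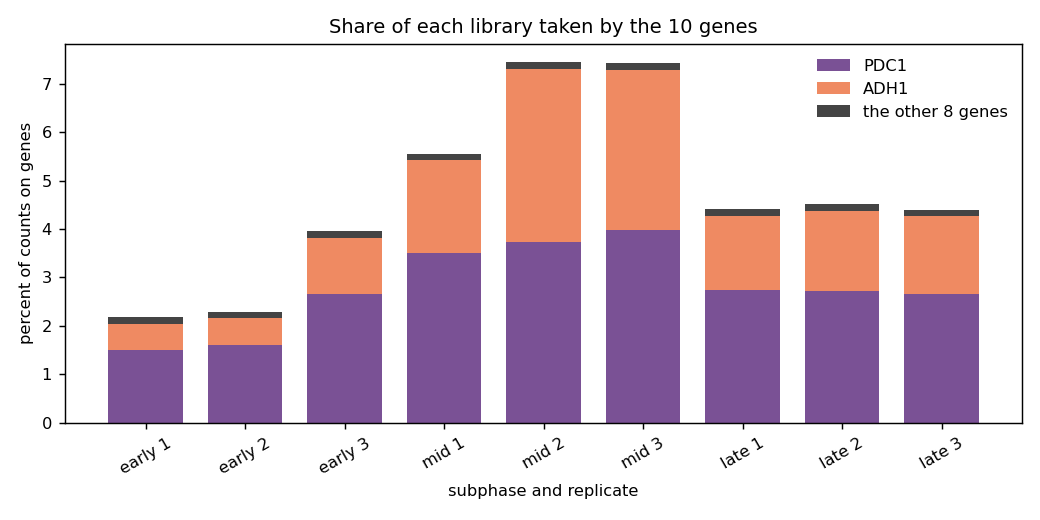
Percent of the counts on genes (vertical axis, from 0) taken by *PDC1*, *ADH1* and the other 8 genes in each of the 9 libraries. The early log bars reach 2.18% to 3.96%, the mid log bars 5.56% to 7.45% and the late log bars 4.40% to 4.51%.

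Between mid and early log, 6 of the 10 genes had a Benjamini-Hochberg adjusted p under 0.05 by the quasi-likelihood test of edgeR. *PDC1*, *ADH1*, *ADH3*, *ADH4* and *ADH5* were higher in mid log and *ALD6* was lower. Of all 5951 genes tested, 44.9% passed, 20.7% higher and 24.2% lower in mid log. The same 6 genes had libraries that did not overlap, as did 61.5% of all genes. The median log2 fold change, mid over early, was 0.83 for the 10 genes and -0.12 for all genes, and under library totals, a scaling taken up below, -0.04 and -0.89. With DESeq2 size factors *ALD6* no longer passed and the other 5 did, with 47.0% of all genes. This count rested on the libraries kept. Without early log replicate 1, early log replicate 2, mid log replicate 2 or mid log replicate 3 it was 0, and so was the count over all genes, of which between 2441 and 2476 had an unadjusted p under 0.05. It was 7 without mid log replicate 1, where 76.4% of all genes passed, 5 without early log replicate 3, where 36.9% did, and 9 with both of these left out, where 89.6% did, so that the count moved with that of the whole table.

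Between late and mid log, 0 of the 10 genes passed in edgeR's test, where 0.46% of 5865 genes passed, 0.307% higher and 0.153% lower in late log. *PDC1*, *PDC5* and *ADH1* had an unadjusted p under 0.05, and DESeq2's own test called 2 of the 10 and 6.04% of all genes. These 3 genes did not overlap between the groups, with *PDC5* higher and *PDC1* and *ADH1* lower in late log, as was true of 28.3% of all genes. The median was -0.50 for the 10 genes and -0.11 for all. Mid log replicate 1 decided this count. Without it 9 genes passed, 1 higher and 8 lower in late log, and 56.1% of all genes did. That fit kept only mid log replicates 2 and 3. With any other library left out none of the 10 genes passed.

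Between late and early log, 7 of the 10 genes passed. *PDC1*, *PDC5*, *ADH1*, *ADH3*, *ADH4* and *ADH5* were higher in late log and *ALD6* was lower. Of all 5954 genes 72.1% passed, 33% higher and 39.2% lower in late log, and the groups of the same 7 genes did not overlap, as for 77.1% of all genes. A share of 7 in 10 is near that of the whole table. The median was 0.79 for the 10 genes and -0.08 for all. With each library left out in turn the count ranged from 6 to 8, beside 63.7% to 80.8% of all genes. Early log replicate 3 was the only early log library of the late log run. A fit with the run as a term therefore sets late log against that library alone. The library's own deviation and the run cannot be told apart in such a fit. With the run as a term, 3 genes passed (*PDC5*, *ADH3* and *ALD6*), against 24.1% of all genes.

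The scaling of the libraries bore on several directions. The TMM factors were 1.36 to 1.47 for early log libraries, 0.700 to 1.01 for mid log libraries and 0.878 to 0.902 for late log libraries. Scaling by library totals alone moved the median log2 fold change of all genes to -0.89 for mid over early log and -0.68 for late over early log. *PDC1*, *ADH1*, *ADH3* and *ALD6* kept their direction under that scaling in all 3 comparisons. The rises were smaller, with mid over early log at 0.96 for *PDC1*, 1.98 for *ADH1* and 1.08 for *ADH3*, beside 1.82, 2.89 and 1.96 after TMM. *ADH4* turned to -0.063 for mid over early log and -0.26 for late over early log, which is still 0.83 and 0.42 above the median of all genes. *ADH5* stayed above 0 in both but no longer passed.

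**Figure D3:**
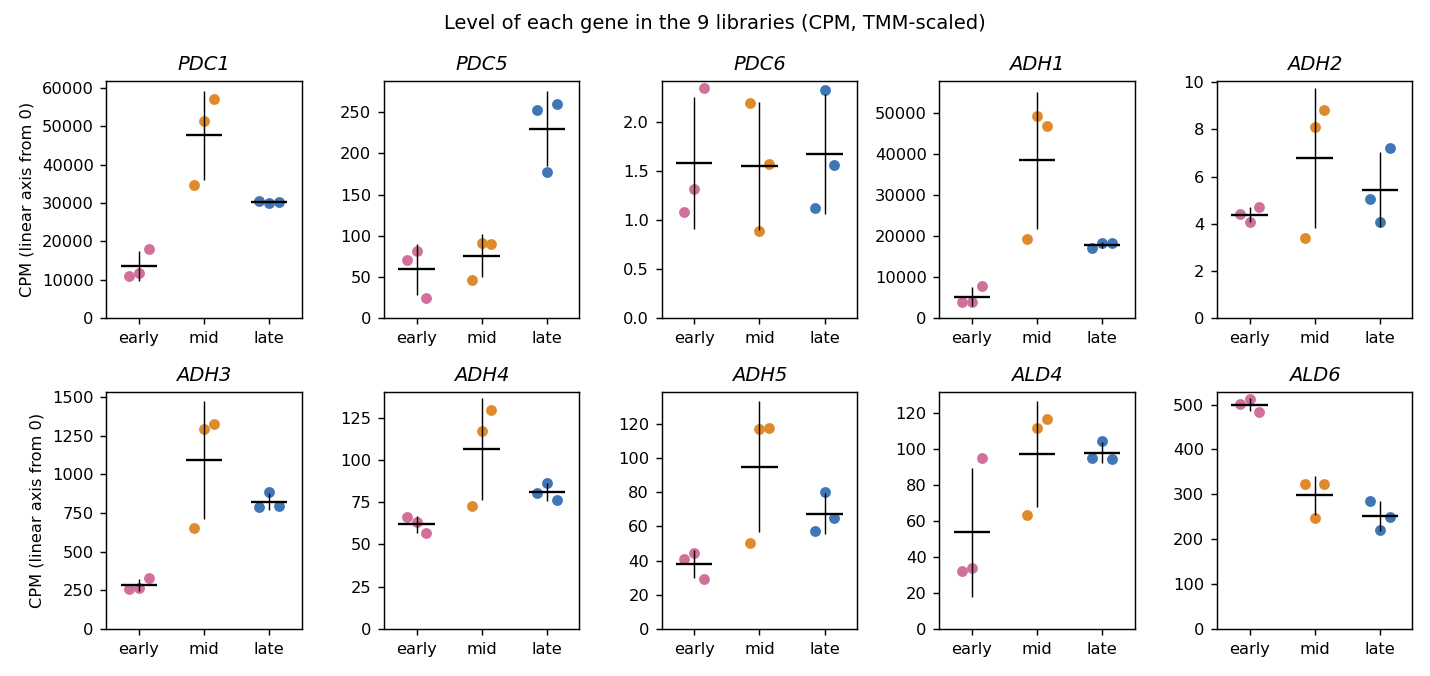
Level of each gene in CPM after TMM scaling (vertical axis, linear and from 0, a separate scale for each gene) in early, mid and late log; points are libraries in the order of replicates 1 to 3, horizontal lines are means and vertical lines SD (n = 3 each). *PDC1* and *ADH1* have their highest mean in mid log, *PDC5* in late log and *ALD6* in early log, while *PDC6* and *ADH2* stay under 10 CPM in every library. Under library totals the mid over early changes of *PDC5*, *ADH2*, *ADH4* and *ALD4* and the late over early changes of *PDC6*, *ADH2* and *ADH4* turn from above 0 to below 0. The mid over early change of *PDC6* and both changes of *ALD6* from early log are below 0 under either scaling.

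*PDC1*, on chromosome XII (232390 to 234081, minus strand, a single coding exon), encodes the main pyruvate decarboxylase. It had 10943, 11874 and 18055 CPM in early log, 34676, 51399 and 56974 CPM in mid log, and 30434, 30045 and 30249 CPM in late log. Every mid log library lay above every late log library, and every late log library above every early log library. The log2 fold change was 1.82 ± 0.38 (SE) for mid over early log (adjusted p = 0.0145) and 1.09 ± 0.23 for late over early log (adjusted p = 0.00377). For late over mid log it was -0.80 ± 0.26 (adjusted p = 0.171), and -1.01 ± 0.07 without mid log replicate 1 (adjusted p = 2.73e-06). With any other library left out, late over mid log did not pass (adjusted p up to 0.549). Within run 3, the early log library at 18055 CPM was still below all late log libraries, and with the run as a term the late over early value was 0.74 (adjusted p = 0.101). Under library totals it was 0.49 (adjusted p = 0.0978). The mid over early value stayed between 1.67 and 2.07 with each library left out, but did not pass without early log replicate 1 or 2 or mid log replicate 2 or 3.

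*PDC5*, also on chromosome XII (410723 to 412414, plus strand), encodes a minor isozyme known to be expressed strongly when *PDC1* is lost or thiamine is scarce. It had 71.2, 81.8 and 24.4 CPM in early log, 46.4, 91.7 and 89.9 CPM in mid log, and 252, 178 and 260 CPM in late log. Early and mid log overlapped, and all late log libraries lay above both. Its log2 fold change was 1.91 ± 0.42 for late over early log (adjusted p = 0.005) and 1.45 ± 0.33 for late over mid log, which missed the threshold (adjusted p = 0.104). Without mid log replicate 1 the late over mid contrast passed, at 1.16 ± 0.15 (adjusted p = 9.54e-05), but not with any other library left out (adjusted p up to 0.449). Under library totals it was 1.80 (adjusted p = 0.0106). For mid over early log it was 0.38 ± 0.49 (adjusted p = 0.535), and -0.47 under library totals. With the run as a term, late over early log was 3.23 (adjusted p = 0.0193), the early log library of that run being the lowest of all 9.

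*PDC6* (chromosome VII, 651290 to 652981, minus strand) encodes the isozyme of lowest expression, known for its induction when sulfur is limiting. It was counted 41, 46 and 91 times in early log, 76, 18 and 32 times in mid log, and 24, 48 and 39 times in late log. Its level was 0.885 to 2.34 CPM, the 3 subphases overlapped throughout, and its log2 fold changes were -0.0037 ± 0.46, -0.011 ± 0.43 and 0.024 ± 0.40 for mid over early, late over mid and late over early log. The adjusted p was 0.958 to 0.996, each sign turned under some alternative, and differences of the size of these standard errors were not detectable at this depth. *PDC6* reads came to 0.00172% to 0.0130% of *PDC1* reads.

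Per kilobase of coding length, *PDC1* made up 99.1% to 99.9% of the summed level of the 3 decarboxylase genes in every library. *PDC5* had 0.646%, 0.684% and 0.135% of it in early log, 0.134%, 0.178% and 0.158% in mid log, and 0.822%, 0.588% and 0.851% in late log. Its share was thus higher in all late log than in all mid log libraries, but overlapped between late and early log. *PDC6* had at most 0.0130%.

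*ADH1* (chromosome XV, 159548 to 160594, minus strand) encodes the cytosolic enzyme that makes most of the ethanol. It had 3941, 4000 and 7842 CPM in early log, 19209, 49278 and 46985 CPM in mid log, and 17051, 18407 and 18252 CPM in late log. No subphase overlapped another, although mid log replicate 1 was closer to late log than to the other mid log libraries. On the log2 scale the change was 2.89 ± 0.52 for mid over early log (adjusted p = 0.0135), a 7.40-fold difference and the largest of the 10 genes, and 1.71 ± 0.30 for late over early log (adjusted p = 0.00166). The size depended on the scaling: under library totals these values were 1.98 and 1.10, and both still passed. For late over mid log it was -1.25 ± 0.39 (adjusted p = 0.155), and -1.60 ± 0.07 without mid log replicate 1 (adjusted p = 6.42e-07). With any other library left out, late over mid log did not pass (adjusted p up to 0.515). With the run as a term the late over early value was 1.19 (adjusted p = 0.105), and within run 3 the early log library, at 7842 CPM, lay below the late log libraries. Leaving out 1 library kept the mid over early value at 2.67 to 3.29, although it did not pass without early log replicate 1 or 2 or mid log replicate 2 or 3.

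*ADH2* (chromosome XIII, 873291 to 874337, minus strand) encodes the enzyme that oxidises ethanol, and is known to be repressed by glucose. It was counted 84 to 182 times per library. Its level was 4.42, 4.06 and 4.69 CPM in early log, 3.41, 8.11 and 8.83 CPM in mid log, and 5.05, 4.08 and 7.21 CPM in late log, and the subphases overlapped. Log2 fold changes were 0.64 ± 0.41 for mid over early log (adjusted p = 0.223), -0.47 ± 0.44 for late over mid log (adjusted p = 0.599) and 0.26 ± 0.24 for late over early log (adjusted p = 0.368). Mid log replicate 1 decided the calls of *ADH2*: without it the value was 0.99 ± 0.19 for mid over early log (adjusted p = 0.00451) and -0.81 ± 0.22 for late over mid log (adjusted p = 0.00943). Under library totals mid over early log was -0.25 and late over early log was -0.34.

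*ADH2* reads came to 0.112%, 0.101% and 0.0598% of *ADH1* reads in early log, 0.0177%, 0.0165% and 0.0188% in mid log, and 0.0296%, 0.0222% and 0.0395% in late log. This ratio needs no scaling between libraries. It was lowest in mid log, where *ADH1* was highest, and the subphases did not overlap. Reads inside their identical stretch of 189 bases fit both genes, and reads that are not unique were set aside, which would lower the counts of both. Reads from stretches that differ at few bases could be placed wrongly and enter the *ADH2* counts. The part of either in the level of *ADH2* was not tested.

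*ADH3* (chromosome XIII, 434788 to 435915, plus strand) encodes the mitochondrial isozyme, known for a shuttle in which ethanol and acetaldehyde carry reducing equivalents across the mitochondrial membrane. It had 259, 265 and 326 CPM in early log, 650, 1295 and 1327 CPM in mid log, and 790, 888 and 793 CPM in late log. All mid and late log libraries lay above all early log libraries, while late log fell between the mid log values. The log2 fold change was 1.96 ± 0.33 for mid over early log (adjusted p = 0.0135), -0.55 ± 0.32 for late over mid log (adjusted p = 0.387) and 1.49 ± 0.14 for late over early log (adjusted p = 0.000116), the smallest p of the 10 genes. The late over early call held with each library left out (1.42 to 1.60), under library totals (0.88, adjusted p = 0.00153) and with the run as a term (1.34, adjusted p = 0.0476). Without mid log replicate 1, late over mid log passed at -0.84 ± 0.09 (adjusted p = 3.87e-05), but not with any other library left out (adjusted p up to 0.7). Without early log replicate 1 or 2 or mid log replicate 2 or 3, mid over early log did not pass, with a range of 1.79 to 2.25 over the 6 fits.

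*ADH4* (chromosome VII, 15159 to 16307, plus strand) encodes an enzyme of an unrelated type, known to be induced when zinc is scarce. It had 66.1, 63.4 and 56.5 CPM in early log, 72.6, 117 and 129 CPM in mid log, and 80.6, 86.4 and 76.2 CPM in late log. Its late log libraries all lay above early log, by a small margin, and inside the range of mid log. On the log2 scale the change was 0.79 ± 0.27 for mid over early log (adjusted p = 0.0486) and 0.33 ± 0.11 for late over early log (adjusted p = 0.0306), but these values were -0.063 and -0.26 under library totals. With each library left out the mid over early value ranged from 0.62 to 1.03, and it passed only without mid log replicate 1 (1.03 ± 0.12, adjusted p = 0.000768), the adjusted p being 0.114 to 0.18 without each of the other 5. With early log replicate 1, early log replicate 2, late log replicate 1 or late log replicate 2 left out the late over early call was lost, the adjusted p ranging from 0.0382 to 0.0889 over the 6 such fits.

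*ADH5* (chromosome II, 533762 to 534817, plus strand) encodes a minor isozyme. It had 40.7, 44.6 and 29.0 CPM in early log, 50.5, 117 and 118 CPM in mid log, and 57.1, 80.3 and 65.2 CPM in late log. Every mid and late log library was above every early log library. The log2 fold change was 1.33 ± 0.38 for mid over early log (adjusted p = 0.0277), -0.64 ± 0.37 for late over mid log (adjusted p = 0.389) and 0.78 ± 0.20 for late over early log (adjusted p = 0.0102). Under library totals the first and the last were 0.46 (adjusted p = 0.221) and 0.19 (adjusted p = 0.397). Without early log replicate 3 the value for mid over early log was 1.17 ± 0.43 (adjusted p = 0.0836), and it did not pass either without early log replicate 1 or 2 or mid log replicate 2 or 3 (1.14 to 1.66 over the 6 fits).

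Among the 5 alcohol dehydrogenase genes, *ADH1* took 91.9% to 97.2% of the summed level per kilobase. *ADH3* came next with 4.98%, 2.65% and 4.06% on average in early, mid and late log, followed by *ADH4* with 1.12%, 0.262% and 0.393% and *ADH5* with 0.769%, 0.240% and 0.355%. *ADH2* had 0.0844%, 0.0171% and 0.0290%. The mean share of each of these 4 genes was lowest in mid log, where *ADH1*, which makes up most of the sum, was highest.

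*ALD6* (chromosome XVI, 432588 to 434090, plus strand) encodes the cytosolic, NADP+-dependent aldehyde dehydrogenase that makes acetate on glucose. It had 500, 513 and 484 CPM in early log, 322, 247 and 323 CPM in mid log, and 285, 221 and 249 CPM in late log. All early log libraries were above all others, including early log replicate 3. The fitted log2 fold change was -0.73 ± 0.21 for mid over early log (adjusted p = 0.0273) and -1.04 ± 0.12 for late over early log (adjusted p = 0.000273), and -0.37 ± 0.19 for late over mid log (adjusted p = 0.335). It was the only one of the 10 genes that was lower in a later subphase than in early log by the test. Under library totals the fall was deeper, at -1.52 and -1.64, and with the run as a term late over early log was -0.94 (adjusted p = 0.0267). Mid over early log ranged from -0.80 to -0.62 with a library left out and did not pass without early log replicate 1 or 2 or mid log replicate 2 or 3.

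*ALD4* (chromosome XV, 1039840 to 1041399, plus strand) encodes the mitochondrial, potassium-activated enzyme, known to be repressed by glucose. It had 32.1, 34.2 and 95.0 CPM in early log, 63.6, 112 and 117 CPM in mid log, and 95.3, 105 and 94.5 CPM in late log. Early log replicate 3 was at the level of late log, so the groups overlapped. As log2 fold changes, the test gave 0.87 ± 0.48 for mid over early log (adjusted p = 0.171) and 0.81 ± 0.41 for late over early log (adjusted p = 0.113). Without early log replicate 3 both passed, at 1.56 ± 0.34 (adjusted p = 0.0244) and 1.52 ± 0.11 (adjusted p = 1.59e-06). With the run as a term, late over early log was 0.05 (adjusted p = 0.916).

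Per kilobase, *ALD4* made up 5.82%, 6.03% and 15.9% of the pair in early log, 16.0%, 30.3% and 25.8% in mid log, and 24.4%, 31.4% and 26.8% in late log. Mid log was above early log in every library, by a narrow gap between early log replicate 3 and mid log replicate 1, and late log was above early log in every library. *ALD6* remained the more abundant transcript of the pair in all 9 libraries.

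**Figure D4:**
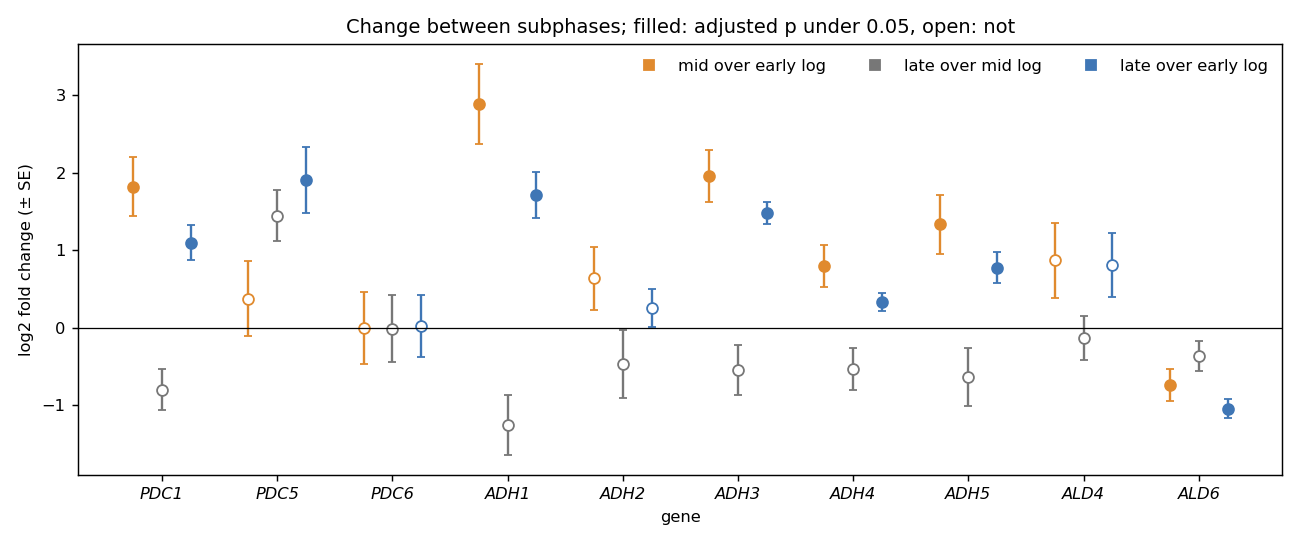
Log2 fold change (vertical axis) with its SE for each of the 10 genes (horizontal axis) in the comparisons mid over early, late over mid and late over early log; filled points had an adjusted p under 0.05 by the quasi-likelihood test of edgeR and open points did not. *ADH1* has the largest value, 2.89 for mid over early log, no late over mid point is filled, and *ALD6* alone is below 0 in every comparison; the positive values of *ADH4* turn negative under library totals (-0.063 and -0.26).

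The order of the 10 genes by mean level per kilobase changed little. In early log *PDC1* was first at 8052 CPM per kilobase and *ADH1* next at 5025, with overlapping libraries. In mid log *ADH1* led at 36763 against 28181 for *PDC1*, again with overlap. In late log the counted level of *PDC1* led, at 17874 against 17100 without overlap. These levels use the full coding length. Of the 50-base windows, 86.0% occurred once in the genome for *ADH1*, against 99.0% for *PDC1*. Reads that are not unique were set aside, which would lower *ADH1* more than *PDC1*. Whether *PDC1* would still lead in late log with a correction for such reads was not tested. *ALD6* ranked above *ADH3* in early log, at 332 against 251 CPM per kilobase, and below it in mid log (198 against 967) and late log (167 against 730), in each case without overlap. *ADH4*, *ADH5*, *ALD4* and *PDC5* followed within a range of 34.5 to 136 CPM per kilobase, and neighbours among them overlapped, except *ADH4* above *ADH5* in early log and *PDC5* above *ADH4* in late log. In late log *PDC5* also overlapped *ALD6*, next above it. *ADH2* and *PDC6* were last in every subphase, at no more than 6.48 and 0.988 CPM per kilobase.

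For each gene the other gene with the most similar course was sought among 2173 or 2174 named genes whose log2 CPM averaged 5 or more, by the root-mean-square difference of centred log2 CPM over the 9 libraries. For *ADH1* it was *ENO2*, an enolase gene of glycolysis, at 0.0622 beside a range of 3.64 for *ADH1* itself. For *PDC1* it was *DAK1*, a dihydroxyacetone kinase gene, at 0.0786 beside a range of 2.38. *ADH3* was nearest to *BDH1*, a butanediol dehydrogenase gene, at 0.0772, and *ADH4* to *GFA1*, which makes glucosamine-6-phosphate, at 0.0719. *ADH5* was nearest to *EMC3* at 0.136, *ALD6* to *NOC3*, a gene of ribosome biogenesis, at 0.141, and *ALD4* to *CPS1*, a vacuolar carboxypeptidase gene, at 0.162. *PDC5* (*ATG44*, 0.350), *PDC6* (*ECM38*, 0.306) and *ADH2* (*NSG2*, 0.250) had no gene so close. Their own ranges were 3.41, 1.34 and 1.36. *PDC6* and *ADH2* lay below the level required of the candidates, so counting error bears on their distances. The measure is a description over 9 libraries, which came from 3 sequencing runs.

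Related genes were counted in 6 lists of fixed membership. The list for acetyl-CoA supply from acetate or pyruvate and its control held 15 genes. In late log 10 were higher and 2 lower than in early log, beside 33% and 39.2% of all genes. The median log2 fold change of the 15 was 0.81 beside -0.08 for all genes. The list includes *PKP1*, *PKP2*, *PTC5* and *PTC6*, genes of kinases and phosphatases that act on pyruvate dehydrogenase. *PKP2* was among the 2 lower genes. The largest rise was that of *ACS1*, an acetyl-CoA synthetase gene used on poor carbon sources, at 1.52 ± 0.20 (adjusted p = 0.000418, edgeR), with 22.3, 27.8 and 24.0 CPM in late log and 7.03, 7.48 and 10.3 CPM in early log. The largest fall was that of *PDX1*, a component of the pyruvate dehydrogenase complex, at -2.60 ± 0.15 (adjusted p = 3.5e-05), with 7.53, 7.67 and 7.93 CPM in late log and 47.7, 49.5 and 37.7 CPM in early log. Between mid and early log 6 were higher and 2 lower, beside 20.7% and 24.2% of all genes. Under library totals it was 2 and 3, where 39.4% of all genes passed. Between late and mid log 1 passed, beside 0.46% of all genes. It was *MPC1* of the mitochondrial pyruvate carrier, named after its value was seen, with a log2 fold change of 1.26 (adjusted p = 0.0393, edgeR). Without mid log replicate 1, 6 were higher and 6 lower, where 56.1% of all genes passed. Under library totals the late over early count was 4 higher and 4 lower, without early log replicate 3 it was 11 and 2, and with the run as a term 3 and 1.

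Of 14 genes for other alcohol, aldehyde and keto acid enzymes, 10 were higher and 0 lower in late log, relative to early log (median 0.77). In mid log 8 were higher than in early log (median 1.11), or 2 under library totals (median 0.26). Of all genes, 33% were higher in late log and 20.7% in mid log, relative to early log. The largest rise from the list was that of *BDH1*, at 1.60 ± 0.14 (adjusted p = 7.85e-05), with 134, 152 and 143 CPM in late log and 41.6, 42.6 and 52.3 CPM in early log. Under library totals the late over early count was 3 higher and 1 lower, without early log replicate 3 it was 13 and 0, and with the run as a term 1 and 0. Between late and mid log 0 passed in edgeR's test, beside 0.46% of all genes, and 4 had an unadjusted p under 0.05. Without mid log replicate 1, 2 were higher and 9 lower, where 56.1% of all genes passed.

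The glycerol branch list holds 7 genes. Some serve glycerol synthesis, the other outlet for NADH in fermenting yeast, while *GUT1*, *GUT2* and *STL1* serve glycerol use and uptake. In late log 2 of the 7 were higher and 0 lower, relative to early log (median 0.29). Over all genes 33% were higher and 39.2% lower, which applies to every list in this paragraph. The 2 higher genes were *GPD1* and *GUT1*, the latter at 0.52 (adjusted p = 0.00657, edgeR) and named after its value was seen. *GPD1*, a glycerol-3-phosphate dehydrogenase gene, had the larger rise, at 1.20 ± 0.31 (adjusted p = 0.00977), with 137, 245 and 147 CPM in late log against 60.6, 59.4 and 102 CPM in early log. It did not pass under library totals (0.59, adjusted p = 0.136). Without early log replicate 3, 4 were higher, and with the run as a term none of the 7 was called in either direction. Under library totals none was higher and 1 was lower, *GPD2*, the other glycerol-3-phosphate dehydrogenase gene, at -0.82 (adjusted p = 0.00864), named after its value was seen. Among 5 genes of acetate and glycerol transport, 1 was higher (*ATO2*, 0.75, adjusted p = 0.0314) and 2 were lower, the larger fall being that of *FPS1*, the glycerol channel gene, at -1.74 ± 0.19 (adjusted p = 0.000204). Without early log replicate 3, 1 was higher and 4 were lower, and with the run as a term none of the 5 passed. Of the 3 NADH dehydrogenase genes of mitochondria, *NDE2* was higher (0.79, adjusted p = 0.0243) and *NDE1* lower (-1.08, adjusted p = 0.000581) in late log, relative to early log, with *NDE1* the more abundant at 349 to 436 CPM in late log and 655 to 854 CPM in early log. Under library totals *ATO2* and *NDE2* did not pass, and with the run as a term 0 of the 3 NADH dehydrogenase genes were higher and 1 was lower.

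Of 13 regulators of these genes, 1 was higher and 10 were lower in late log, relative to early log, beside 33% and 39.2% of all genes. Their median was -1.67 beside -0.08 for all genes. Between mid and early log 1 was higher and 8 were lower (median -1.31), beside 20.7% and 24.2% of all genes. Between late and mid log 0 passed in edgeR's test, beside 0.46% of all genes, and 1 had an unadjusted p under 0.05. Without mid log replicate 1, 1 was higher and 1 lower, where 56.1% of all genes passed. The largest fall was that of *MIG1*, the glucose repressor gene, at -4.01 ± 0.51 (adjusted p = 0.000398), with 1.08, 0.825 and 0.921 CPM in late log and 19.8, 18.6 and 5.72 CPM in early log. The rise was that of *THI2*, an activator gene of thiamine synthesis, at 1.35 ± 0.17 (adjusted p = 0.000415), with 13.7, 17.5 and 18.8 CPM in late log and 6.45, 6.14 and 6.29 CPM in early log. The late over early count was 1 higher and 12 lower under library totals, 1 and 10 without early log replicate 3, and 1 and 4 with the run as a term. Under library totals 3291 of all 5954 genes were lower in late log and 839 higher. The counts of the list describe transcripts of the regulators and carry no measure of their activity.

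**Figure D5:**
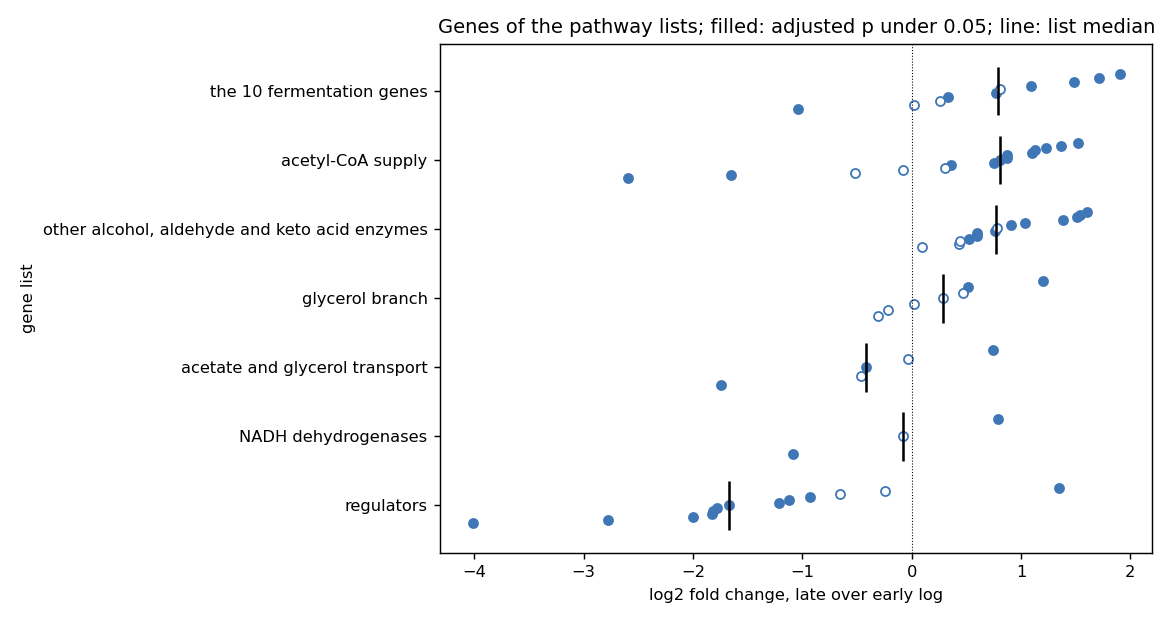
Log2 fold change, late over early log (horizontal axis), of each gene in the 10 fermentation genes and the 6 lists (vertical axis); filled points had an adjusted p under 0.05 by the quasi-likelihood test of edgeR and the upright lines are list medians. The medians are 0.79 for the 10 genes and -1.67 for the 13 regulators; scaling by library totals would shift the median of all genes to -0.68 and that of the 10 genes to 0.19.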

How the data were processed

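The authors prepared directional, poly(A)-selected libraries that were sequenced from a single end, aligned the reads to R64-1-1 with STAR and counted them per gene with HTSeq. The sources differ on the HTSeq version (0.12.3 in the submitters' processing notes), and the strand setting and read length are not given in the sources used here. The deposited values are raw counts, 1 file per library, and 5 lines per file that name no gene were set aside: no feature (6.65% to 10.7% of the file's total), not unique (7.46% to 11.2%), ambiguous (0.281% to 0.511%) and the other lines.

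Fits used only the 6 libraries of the subphases compared, in R 4.3.3 with edgeR 4.0.16 (filterByExpr, TMM, quasi-likelihood test, Benjamini-Hochberg over all genes tested, threshold 0.05). SE came from the F statistic. CPM were scaled by TMM over the 9 libraries. DESeq2 1.42.0 was an alternative. An exact permutation of 3 against 3 libraries cannot go below p = 0.1. The labels give biological replicates by number only, and p-values measure the spread between these libraries. The 10 genes and the lists were chosen with earlier results of these data known. In each list the genes with the largest rise and the largest fall past the threshold in late over early log were named, and for each of the 10 genes the single most similar gene. The alternatives for the lists were added after seeing the data. Fits were tested on simulated data. Sequences are from the R64 reference, read with Python 3.11.15 and Biopython 1.88, and upstream windows end at -101 from the start codon.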

Additional observations from a re-analysis of the deposited data

How the results depend on the processing

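Over the alternatives for single genes, 117 values of late over early log, 108 of late over mid log and 93 of mid over early log kept their direction and their side of the threshold, 13, 0 and 33 lost the call, and 2, 13 and 5 gained it. The number of the 10 genes past the threshold ranged from 0 to 7 with a library left out between mid and early log, from 0 to 9 between late and mid log and from 6 to 8 between late and early log. Between mid and early log it was 0 without early log replicate 1, early log replicate 2, mid log replicate 2 or mid log replicate 3, beside 6 with all libraries. Between late and mid log it was 2 under library totals (7.72% of all genes), 2 in DESeq2's test (6.04%) and 9 without mid log replicate 1 (56.1%), beside 0 (0.46%). Between late and early log it was 4 under library totals (69.4%) and 3 with the run as a term (24.1%), beside 7 (72.1%). With the run as a term, the early log side rests on early log replicate 3 alone. The causes of these differences were not tested.

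Directions turned for mid over early log in *PDC6* (0.14 with DESeq2 size factors, 0.10 in DESeq2's test, 0.40 without early log replicate 3, 0.27 without mid log replicate 2, 0.09 without early log replicate 3 and mid log replicate 1) and, under library totals, in *PDC5* (-0.47), *ADH2* (-0.25), *ADH4* (-0.063) and *ALD4* (-0.022). For late over mid log they turned in *PDC6* (0.17 under library totals, 0.092 in a fit of all 9 libraries, and 0.27, 0.02, 0.21 and 0.05 without mid log replicate 1, mid log replicate 3, late log replicate 1 and late log replicate 3) and in *ALD4* (0.21 under library totals, 0.013 in the fit of all 9 libraries and 0.041 without mid log replicate 3). For late over early log they turned in *PDC6* (-0.58 under library totals, -0.025 with no filter, -0.49 with the run as a term, and -0.18, -0.08 and -0.30 without early log replicate 1, early log replicate 2 and late log replicate 2) and, under library totals, in *ADH2* (-0.34) and *ADH4* (-0.26). With each library left out in turn, *PDC6* ranged from -0.326 to 0.396 for mid over early log, from -0.323 to 0.266 for late over mid log and from -0.296 to 0.428 for late over early log, and *ALD4* from -0.390 to 0.041 for late over mid log. Only *ADH4* among these had passed the test.

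Replicate numbers did not pair the libraries: correlations of same-numbered deviations from the group means ranged from -0.358 to 0.38. With a replicate block the counts were 4, 0 and 8 between mid and early, late and mid, and late and early log, beside 6, 0 and 7 without it, and 44.5%, 0.0171% and 70.7% of all genes passed with the block, beside 44.9%, 0.46% and 72.1% without it. *PDC6* and *ADH2* had 18 to 182 counts per library, against 948 or more for the other genes, so counting error bears most on them.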
